A study of Mus musculus with 6 samples.

Results

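Collagen chain genes were followed across aortas of double-knockout mice, without Apoe and Adora1 (DKO, genotype apoe-/- adora1-/-, n = 3) and mice lacking Apoe alone (ApoE-KO, genotype apoe-/-, n = 3). The list named 38 collagen genes, and a gene was kept where the platform annotation gave it a probe set naming no other gene, with the brightest such probe set taken where a gene had several. All 38 had one, of 19752 genes that had one on the array. All mice were on a C57BL/6 background and 20 weeks old, both groups carried the Apoe deletion, and no wild-type or Adora1-only aorta was among the 6. Adora1 encodes the adenosine A1 receptor, and mice without Apoe clear plasma lipoproteins poorly and develop atherosclerosis. The series text names the comparison group as mice lacking Adora1, whereas each of those samples is titled and genotyped as an Apoe knockout, which is followed here. Each aortic sample was hybridised to 1 Affymetrix whole-transcript array, and a level below is the log2 intensity of a probe set. Nothing in the labels says whether RNA of several mice was pooled, so p-values measure the spread between these samples.

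Collagens are trimers of chains wound into a triple helix. Types I, III and V form the fibrils that carry load in the artery wall, type IV forms the sheet of the basement membrane around smooth muscle cells and under the endothelium, and type VI forms beaded filaments that link cells to fibrils. Smooth muscle cells and adventitial fibroblasts are the main sources of aortic collagen, and collagen of the fibrous cap holds an atherosclerotic plaque together.

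Array medians lay between 8.01 and 8.02 and correlations between arrays between 0.983 and 0.995. Smooth muscle genes, the defining transcripts of aorta, were high in all 6 arrays, with Acta2 between 13.97 and 14.06. Both replicate 3 arrays carried lung transcripts: Scgb1a1, a secretory protein of the airway, read 12.93 in DKO replicate 3 and 13.70 in ApoE-KO replicate 3, against 5.40 to 5.97 in the other 4 arrays. Skeletal muscle genes (7 measured) were also highest there on average, at 7.97 in DKO replicate 3 and 8.25 in ApoE-KO replicate 3, against 7.25 to 7.41 in the other 4. Apoe itself read 9.39, 9.63 and 9.72 in DKO and 9.47, 9.64 and 10.04 in ApoE-KO, and with no wild-type array and the place of its probes in the deletion unknown, this does not check the knockout. Adora1 is not analysed here. Xist, which is transcribed from an inactive X chromosome, stayed between 6.19 and 6.67. The groups overlapped in it and in the Y-linked genes Kdm5d (8.59 to 8.83) and Uty (8.47 to 8.83). They did not overlap in the Y-linked gene Eif2s3y, which read 9.30, 8.95 and 9.34 in DKO and 9.36, 9.47 and 9.74 in ApoE-KO (-0.33; limma, adjusted p = 0.862, paired 0.182).

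No collagen gene passed the test between the groups after adjustment over all probe sets. Type IV chain genes Col4a6 and Col4a5 had the highest differences, DKO over ApoE-KO, at 0.37 and 0.25 on the log2 scale, or 1.29-fold and 1.19-fold, while Col3a1, Col6a3 and Col1a1 had the lowest, at -0.25, -0.22 and -0.19. With limma and Benjamini-Hochberg adjustment at 0.05, 0 of the 38 passed without pairing, where 0.0% of the 25254 probe sets did. With the replicate number as a block (paired fit) 0 of the 38 passed, against 0.174% of all probe sets (0.095% higher and 0.0792% lower in DKO). At an unadjusted p under 0.05, limma without pairing held 1 member, Col4a6, which is 2.63% of the members against 5.62% of all probe sets. The paired limma fit held 5 at that level, Col18a1, Col3a1, Col6a3, Col4a6 and Col4a5, which is 13.2% against 16.2%. Both shares lay below those of the whole array.

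The direction was more one-sided. The mean was lower in DKO in 30 of 38 members (78.9%), against 50.7% of all probe sets, and the median difference was -0.0587 over the members and -0.0024 over all probe sets. In 14 members (36.8%) all 3 same-numbered pairs were lower in DKO, where 19.1% of all probe sets were, and in 5 (13.2%) all 3 were higher, where 21.2% were. The members' medians by replicate number were -0.092, -0.053 and 0.0019, so the shift lay in numbers 1 and 2. Without ApoE-KO replicate 1, in the fit without pairing, the median was -0.0155 and 21 of 38 members were lower in DKO. In 27 of 38 members the mean of same-numbered arrays was highest for number 1, and this refit kept DKO replicate 1. With both arrays of pair 1 left out, 25 of 38 were lower in the paired fit. The groups did not overlap in 5 members: Col4a6 was higher in every DKO array (2.63% of members, 5.55% of all probe sets), and Col7a1, Col16a1, Col11a1 and Col10a1 were lower in every DKO array (10.5% of members, 6.47% of all probe sets). Among these, Col7a1, the anchoring fibril chain under epithelia, differed by -0.09, Col16a1 by -0.15, and the cartilage chains Col11a1 and Col10a1 by -0.16 and -0.14, none of which passed (limma, adjusted p from 0.862 to 0.897). In whole-tissue RNA fewer cells of a type and less RNA per cell cannot be told apart.

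**Figure D1:**
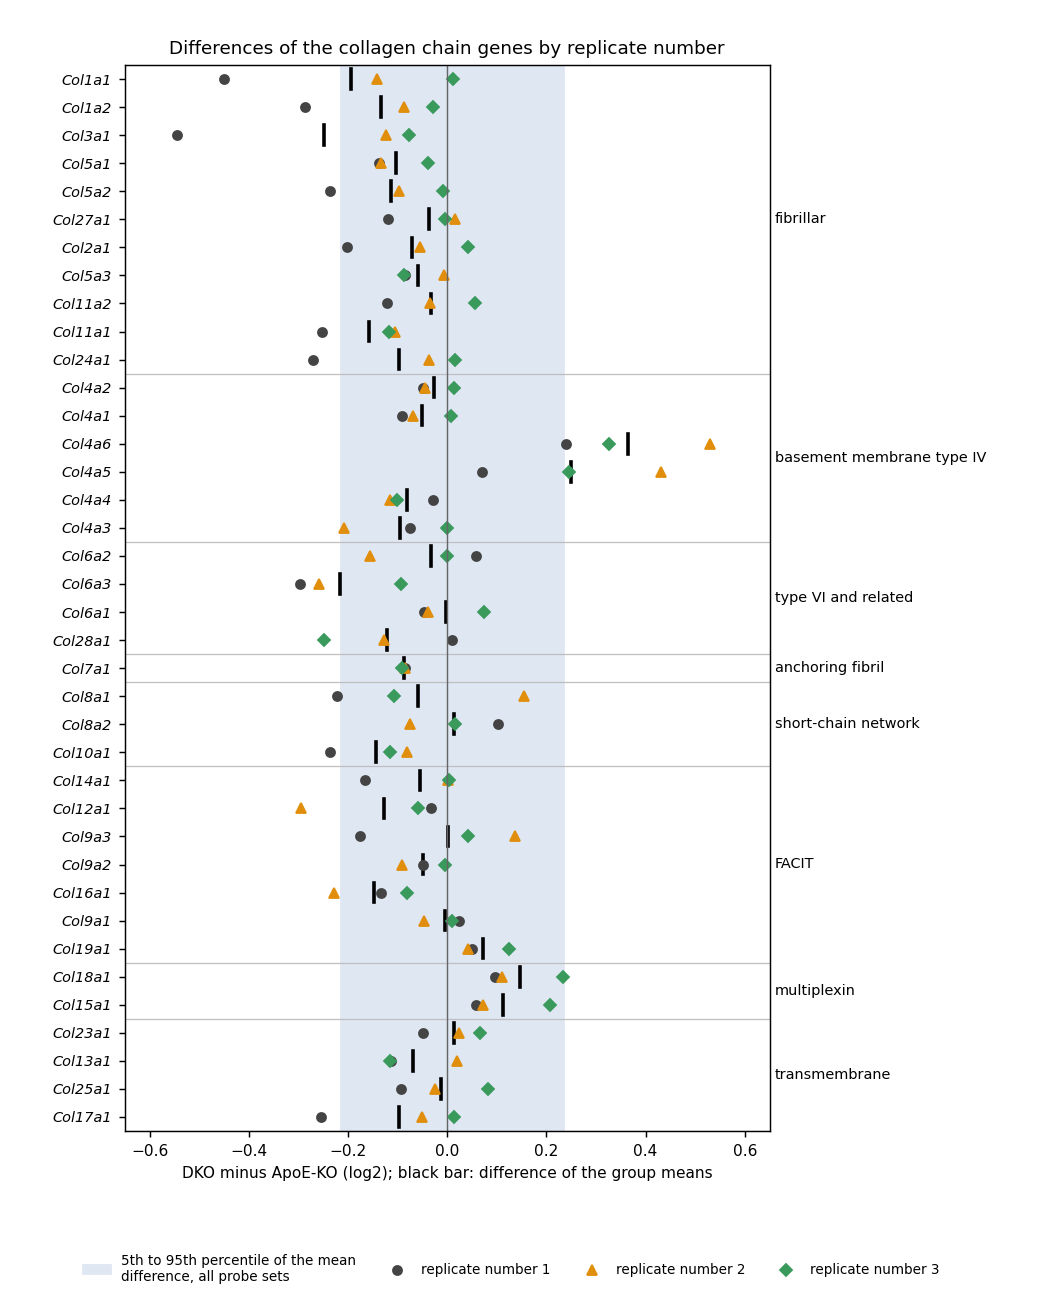
Difference DKO minus ApoE-KO (log2, x axis) of each of the 38 collagen chain genes, by class: symbols are the 3 same-numbered pairs and black bars the difference of the group means. The shaded band spans -0.21 to 0.23, the 5th to 95th percentile of the mean difference of all probe sets, and Col4a6 and Col4a5 lie to the right of it, Col3a1 to its left and Col6a3 at its left edge.

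Probe sets differ in how brightly they respond, so their order is an order of signals and not of transcript amounts. Highest were Col1a1 and Col1a2, the chains of type I collagen, with means of 12.26 and 12.21 over the 6 arrays, followed by Col14a1 (11.74), a fibril-associated chain, Col18a1 (11.27), the basement membrane chain whose end fragment is endostatin, Col3a1 (11.16), the type III fibril chain of distensible vessels, and Col6a2 (10.98). These 6 stood between the 92.8th and 98.0th percentile of all probe sets. Col10a1, of growth-plate cartilage, was lowest at 6.78, the 26.6th percentile, with Col28a1, a chain related to type VI, above it at 7.06. The values carry no detection call, so whether the dim chains were expressed is not known.

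**Figure D2:**
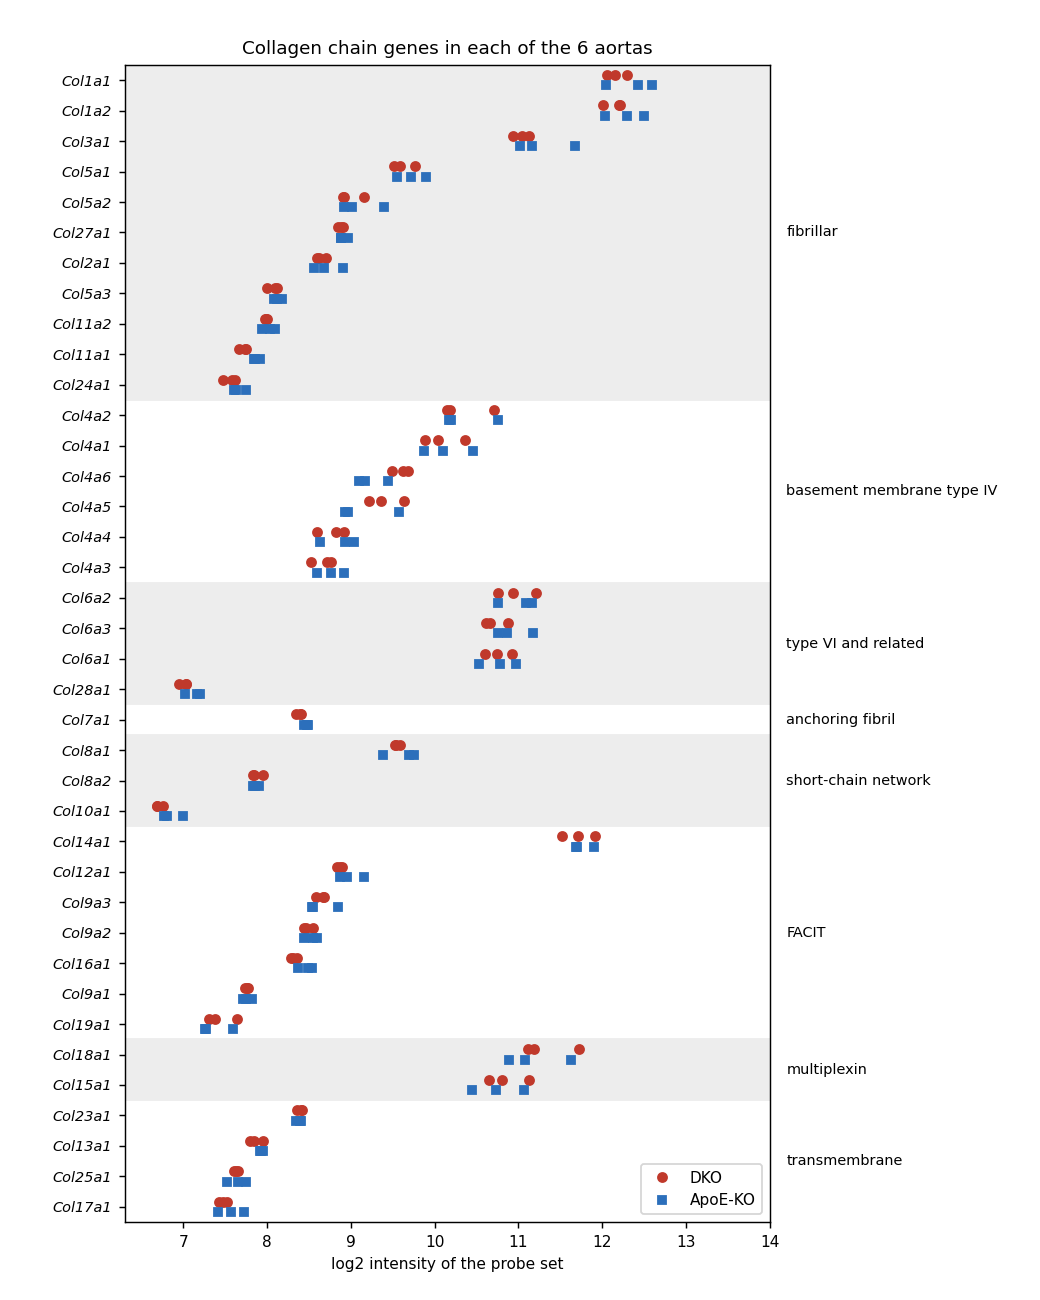
Log2 intensity (x axis) of the 38 collagen chain genes in each of the 3 DKO (circles) and 3 ApoE-KO aortas (squares), by class. Values run from 6.69 for Col10a1 in DKO to 12.60 for Col1a1 in ApoE-KO, and the groups overlap in all genes but 5.

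The type IV chains are encoded in head-to-head pairs, each sharing the stretch between its starts: Col4a1 with Col4a2, Col4a3 with Col4a4, and Col4a5 with Col4a6 on the X chromosome. The last pair assembles into the basement membrane of smooth muscle, among other sites, and its members had the 2 highest differences of the 38. In RefSeq (GRCm38.p6) the starts of Col4a6 and Col4a5 lie 1343 bases apart, against 21 bases for Col4a1 and Col4a2. The 250 bases before the start of Col4a6 (chrX:141474077-141474326, minus strand) and of Col4a5 (chrX:141475169-141475418, plus strand) are shown because both genes were higher in DKO in all 3 pairs, each read 5′ to 3′ in its own gene's direction. Capitals mark a CCAAT box (CCAAT) or a GC box (GGGCGG), each searched on both strands; the 2 motifs do not overlap here.
Col4a6: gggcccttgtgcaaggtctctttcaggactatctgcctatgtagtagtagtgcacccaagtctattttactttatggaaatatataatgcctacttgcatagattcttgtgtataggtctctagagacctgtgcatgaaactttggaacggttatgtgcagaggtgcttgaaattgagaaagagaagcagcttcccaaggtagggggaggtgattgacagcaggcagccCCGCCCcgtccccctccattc
Col4a5: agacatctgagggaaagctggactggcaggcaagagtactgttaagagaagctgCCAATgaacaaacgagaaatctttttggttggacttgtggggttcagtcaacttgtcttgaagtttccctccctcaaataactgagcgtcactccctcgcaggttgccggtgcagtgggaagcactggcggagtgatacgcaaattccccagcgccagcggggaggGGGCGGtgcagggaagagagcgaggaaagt
Both held a GC box, beginning 21 and 30 bases before the start (on the opposite strand in Col4a6), and Col4a5 held a CCAAT box beginning 196 bases before it. Over 32851 promoter windows of this length 32.7% held a GC box and 33.8% a CCAAT box, so either letter string is common.

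Col4a6 (probe set 10607012) read 9.69, 9.63 and 9.50 in DKO aortas and 9.45, 9.10 and 9.17 in ApoE-KO aortas. Every DKO array lay above every ApoE-KO array. The means were 9.60 ± 0.10 in DKO and 9.24 ± 0.19 in ApoE-KO (SD, n = 3 each), a difference of 0.37 (95% interval 0.09 to 0.64; limma, adjusted p = 0.861). The pairs stood at 0.24, 0.53 and 0.33, and the paired limma fit gave a 95% interval of 0.19 to 0.54 and an adjusted p of 0.101. Col4a5 (probe set 10602105) read 9.64, 9.36 and 9.22 in DKO aortas and 9.57, 8.93 and 8.97 in ApoE-KO aortas. Here ApoE-KO replicate 1 lay inside the DKO range, and the groups overlapped. The difference was 0.25 (limma, 95% interval -0.21 to 0.71, adjusted p = 0.891), with pairs at 0.07, 0.43 and 0.25. For Col4a5 the paired limma fit gave an interval of 0.06 to 0.44 and an adjusted p of 0.214. Without pairing, the Col4a5 difference was 0.13 without DKO replicate 1, and 0.14 or 0.16 without ApoE-KO replicate 2 or 3. It was 0.45 without ApoE-KO replicate 1, while that of Col4a6 stayed between 0.29 and 0.47 with any single array left out. In both genes pair 2 showed the widest gap and pair 1 the narrowest.

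The widely expressed chains Col4a1 and Col4a2 had smaller differences. Col4a1 read 10.37, 10.03 and 9.88 in DKO and 10.46, 10.10 and 9.88 in ApoE-KO, and Col4a2 read 10.71, 10.15 and 10.18 in DKO and 10.76, 10.20 and 10.17 in ApoE-KO. Both were highest in the replicate 1 arrays of either genotype, and their pair differences stayed between -0.09 and 0.01. Differences between the groups were -0.05 (95% interval -0.48 to 0.37) for Col4a1 and -0.03 (-0.52 to 0.47) for Col4a2. Taken within each array, Col4a6 minus Col4a1 was -0.68, -0.41 and -0.39 in DKO and -1.01, -1.01 and -0.71 in ApoE-KO, groups that did not overlap, with a mean shift of 0.42. Col4a6 minus Col4a2 was -1.02, -0.53 and -0.69 in DKO and -1.31, -1.10 and -0.998 in ApoE-KO, groups that overlapped. Col4a5 shifted by 0.30 against Col4a1 and by 0.27 against Col4a2, without overlap in either. Col4a2 minus Col4a1 shifted by 0.02. These chains were chosen for their differences, and the shifts carry no test. Col4a3 and Col4a4, the chains of kidney and lung basement membranes, differed by -0.09 and -0.08 (limma, adjusted p = 0.935 and 0.951) and read lower in both replicate 1 arrays than in the other 4.

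**Figure D3:**
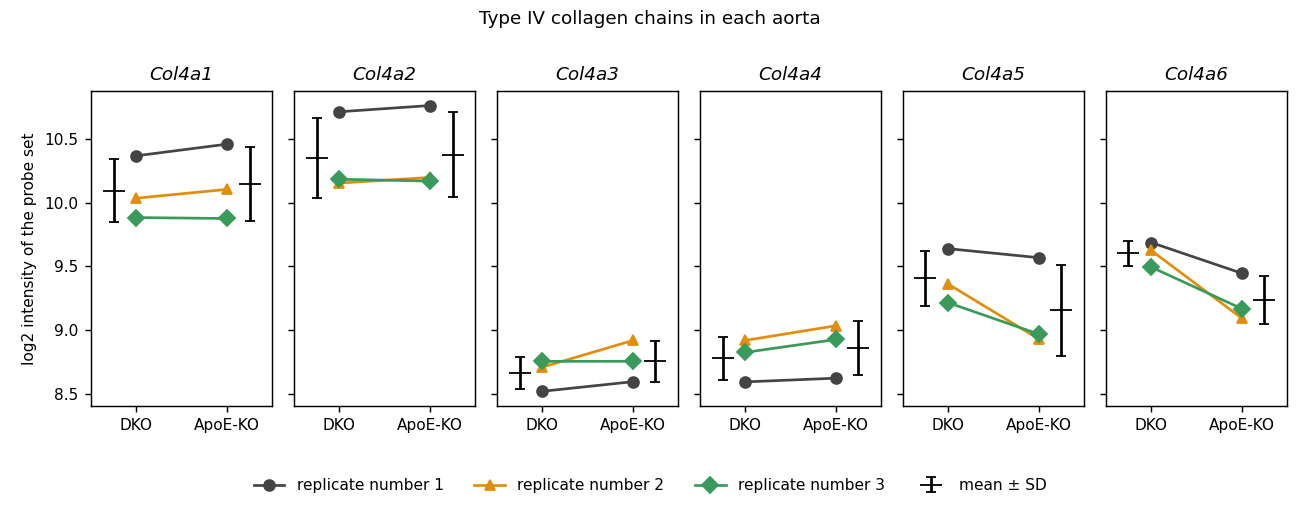
Log2 intensity (y axis, not starting at 0) of the 6 type IV chain genes in DKO (left of each panel) and ApoE-KO (right), with lines joining arrays of the same replicate number and bars giving the mean ± SD (n = 3). Lines slope down to ApoE-KO in all 3 pairs of Col4a5 and Col4a6, while those of Col4a1 and Col4a2 run nearly level and part by replicate number.

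Near this pair on the X chromosome, 6 genes with a probe set (3 on either side in the RefSeq order) had differences between -0.11 and 0.35. Psmd10, a proteasome assembly factor, stood highest at 9.31, 9.07 and 8.95 in DKO and 9.03, 8.68 and 8.58 in ApoE-KO (0.35; limma, paired adjusted p = 0.0827) and was picked out for its value. Nxt2, a factor of mRNA export, was likewise higher in all 3 pairs, by 0.26 (paired adjusted p = 0.171). Over 657 X-linked genes the median difference was 0.02, and 23.0% had an unadjusted p under 0.05 in the paired limma fit, against 16.2% of all probe sets. Mesothelial genes, which mark the cell sheet that can adhere to a dissected vessel, had the same direction as Col4a6: all 7 measured had a higher mean in DKO, 2 of them past the threshold in the paired limma fit, and their mean level was 8.03, 8.48 and 8.23 in DKO against 7.46, 7.40 and 7.76 in ApoE-KO. Their median pair differences were 0.59, 1.03 and 0.39. The gap was widest in pair 2 as well, where Upk3b, a uroplakin of mesothelium, differed by 2.22. It was narrowest in pair 3, whereas that of Col4a5 and Col4a6 was narrowest in pair 1. Smooth muscle genes had mean levels of 12.89, 12.77 and 12.77 in DKO and 12.86, 12.64 and 12.65 in ApoE-KO. Of 7 measured, 6 had a higher mean in DKO, and their median pair differences were 0.03, 0.07 and 0.05. The part of either cell type in the Col4a5 and Col4a6 differences was not tested.

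All 11 fibrillar chain genes had a lower mean in DKO, by 0.03 to 0.25, and none passed; 6 were lower in all 3 pairs. Col1a1 (probe set 10380419) read 12.15, 12.29 and 12.06 in DKO and 12.60, 12.43 and 12.04 in ApoE-KO, a difference of -0.19 (95% interval -0.54 to 0.15; limma, adjusted p = 0.891, paired 0.335). Its partner Col1a2 (probe set 10536220) read 12.21, 12.21 and 12.01 in DKO and 12.50, 12.29 and 12.04 in ApoE-KO, a difference of -0.13 (-0.43 to 0.16; adjusted p = 0.915, paired 0.346). In both the groups overlapped, and ApoE-KO replicate 1 was the highest of the 6 arrays. Col3a1 (probe set 10346015) read 11.13, 11.04 and 10.94 in DKO and 11.67, 11.17 and 11.02 in ApoE-KO. Its difference was -0.25 (limma, 95% interval -0.65 to 0.15, adjusted p = 0.878), and its pairs stood at -0.54, -0.12 and -0.08. The paired limma fit gave an interval of -0.47 to -0.02 and an adjusted p of 0.274. The spread lay mostly in ApoE-KO, with an SD of 0.09 in DKO and 0.34 in ApoE-KO. Without ApoE-KO replicate 1, in the fit without pairing, the differences were -0.05 for Col3a1, -0.07 for Col1a1 and -0.02 for Col1a2. In pair 2 these genes differed by -0.12, -0.14 and -0.09, and in pair 3 by -0.08, 0.01 and -0.03.

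The 250 bases before the RefSeq starts of Col3a1 (chr1:45311288-45311537, plus strand) and Col1a2 (chr6:4505368-4505617, plus strand) are shown to set these fibrillar chains, which were lower in all 3 pairs, beside the type IV pair above, with the same motifs in capitals.
Col3a1: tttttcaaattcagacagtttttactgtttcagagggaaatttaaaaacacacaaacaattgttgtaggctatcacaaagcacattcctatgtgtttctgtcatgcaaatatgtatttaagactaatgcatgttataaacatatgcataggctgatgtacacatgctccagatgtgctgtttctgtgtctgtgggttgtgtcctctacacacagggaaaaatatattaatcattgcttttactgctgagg
Col1a2: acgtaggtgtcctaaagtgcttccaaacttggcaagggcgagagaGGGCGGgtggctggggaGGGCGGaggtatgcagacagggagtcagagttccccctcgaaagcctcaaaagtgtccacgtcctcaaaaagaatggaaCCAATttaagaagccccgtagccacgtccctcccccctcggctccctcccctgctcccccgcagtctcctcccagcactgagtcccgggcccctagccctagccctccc
Col1a2 held 2 GC boxes, beginning 205 and 188 bases before the start, and a CCAAT box beginning 109 bases before it. Neither string occurred in the Col3a1 window, whose G and C content was 35.2%, against 62.0% in Col1a2, 47.6% in Col4a6 and 54.0% in Col4a5. Of the 38 members, 31 had a promoter in the RefSeq table.

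The minor fibril chains also had lower means in DKO. Col5a1 and Col5a2, which start fibril assembly and set fibril width, differed by -0.10 and -0.11, and Col5a3, a scarcer type V chain, by -0.06. Col11a1, the type XI chain that nucleates cartilage fibrils, read 7.67, 7.75 and 7.73 in DKO and 7.92, 7.86 and 7.85 in ApoE-KO, a gap of -0.16 (95% interval -0.32 to 0.00). Col2a1, the main cartilage fibril chain, differed by -0.07, Col11a2 by -0.03, and Col24a1 and Col27a1 by -0.10 and -0.04. Median pair differences of the 11 chains were -0.24, -0.09 and -0.01. Beside them, macrophage genes had pair medians of -0.65, 0.32 and 0.21: their mean level over 7 measured genes was 8.81, 9.90 and 9.54 in DKO and 9.46, 9.59 and 9.32 in ApoE-KO, lowest in DKO replicate 1. Fibroblast genes (7 measured) averaged 11.83, 12.19 and 12.16 in DKO and 11.85, 12.27 and 12.06 in ApoE-KO. Of 10 cartilage genes measured, other than collagens, 6 had a higher mean in DKO and 4 a lower one, and 0 passed in either fit. Their median difference was 0.10, with pair medians of 0.10, 0.01 and 0.10. White fat genes had a lower mean in DKO in 6 of 7, 4 of the 7 passing in the paired limma fit, with mean levels of 8.997, 9.83 and 9.37 in DKO and 9.81, 10.45 and 10.03 in ApoE-KO. The part of these cells in the fibrillar differences was not tested.

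The type VI chains had unequal differences. Col6a3, the long chain that carries most of the protein's adhesive domains, read 10.88, 10.61 and 10.66 in DKO and 11.17, 10.87 and 10.76 in ApoE-KO, a difference of -0.22 (95% interval -0.52 to 0.09; limma, adjusted p = 0.866, paired 0.180), and all 3 pairs were lower in DKO. Without ApoE-KO replicate 1, in the fit without pairing, the Col6a3 difference was -0.10. Its pairs stood at -0.30, -0.26 and -0.09, with a paired limma 95% interval of -0.36 to -0.07. Col6a1 read 10.92, 10.74 and 10.60 in DKO and 10.97, 10.78 and 10.53 in ApoE-KO, a difference of 0.00 (-0.32 to 0.32). Col6a2, its neighbour on chromosome 10, read 11.22, 10.93 and 10.76 in DKO and 11.16, 11.09 and 10.76 in ApoE-KO, a difference of -0.03. Within each array Col6a3 minus Col6a1 was -0.05, -0.13 and 0.06 in DKO and 0.20, 0.09 and 0.23 in ApoE-KO, without overlap. Of these chains Col6a3 had the largest difference and Col6a1 the smallest, so a shift follows from the choice, and it carries no test. Col6a2 minus Col6a1 shifted by -0.03, with overlap. Col28a1 differed by -0.12 (adjusted p = 0.866).

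Both multiplexins, the basement membrane proteoglycan chains Col18a1 and Col15a1, were higher in DKO in all 3 pairs. Col18a1 (probe set 10370259) read 11.73, 11.19 and 11.12 in DKO and 11.63, 11.08 and 10.89 in ApoE-KO, a difference of 0.15 (95% interval -0.40 to 0.69; limma, adjusted p = 0.949, paired 0.265). Col15a1 read 11.12, 10.80 and 10.65 in DKO and 11.06, 10.73 and 10.44 in ApoE-KO, a difference of 0.11 (adjusted p = 0.951, paired 0.382). The means of same-numbered arrays spanned 0.68 in Col18a1 and 0.55 in Col15a1, and Col18a1 had the widest range of the 38, at 0.84. In the fit without pairing, Col18a1 differed by -0.01 without ApoE-KO replicate 3 and by -0.05 without DKO replicate 1. Such a refit drops 1 array of a pair and weighs the replicate numbers unequally. The 3 pairs of Col18a1 stood at 0.10, 0.11 and 0.23 (paired limma, 95% interval 0.02 to 0.28).

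In the remaining classes differences were small. Col14a1 read 11.52, 11.91 and 11.71 in DKO and 11.68, 11.91 and 11.70 in ApoE-KO, a difference of -0.05, and in pairs 2 and 3 the arrays differed by 0.001 and 0.003. The other fibril-associated (FACIT) chains ran from -0.15 for Col16a1 to 0.07 for Col19a1, with Col12a1, a tension-responsive chain, at -0.13 and the cartilage chains Col9a1, Col9a2 and Col9a3 between -0.05 and 0.00. Col8a1, a short-chain collagen made by smooth muscle in injured arteries, read 9.53, 9.53 and 9.59 in DKO and 9.75, 9.38 and 9.70 in ApoE-KO. Its difference was -0.06, and the DKO SD of 0.03 stood against 0.20 in ApoE-KO. Its partner Col8a2 differed by 0.01. The transmembrane chains Col13a1, Col17a1, Col23a1 and Col25a1 ran from -0.10 to 0.01.

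In 31 of 38 members (81.6%) the range of the 3 same-numbered pair means was wider than the difference between the groups, a share near the 80.4% of all probe sets. In 14 members both replicate 1 arrays lay above the other 4 arrays (36.8%, against 19.8% of all probe sets), among them Col4a1, Col4a2, Col4a5, Col18a1, Col15a1 and all 3 of Col6a1, Col6a2 and Col6a3. In 14 members, among them Col1a1, Col1a2 and Col3a1, both replicate 3 arrays lay below the others (11.2% of all probe sets). The replicate 3 arrays are those with lung transcripts and a higher mean level of skeletal muscle genes. Within that pair Col3a1, Col1a1 and Col1a2 differed by -0.08, 0.01 and -0.03. The labels do not say what arrays of one number share.

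Genes whose products modify, fold, trim, cross-link or bind collagen were read from the same fits. Of 51 with a probe set, 0 passed in either direction (limma, without pairing and paired), 3 had an unadjusted p under 0.05 without pairing (5.88%, against 5.62% of all probe sets), and in the paired fit 5 did on the higher and 10 on the lower side (29.4%, against 16.2%). P4ha1 and P4ha3 encode catalytic subunits of prolyl 4-hydroxylase, which hydroxylates proline so that the helix holds at body temperature. P4ha3 read 7.26, 7.37 and 7.11 in DKO and 8.67, 7.82 and 7.64 in ApoE-KO, a difference of -0.80 (95% interval -1.39 to -0.20; limma, adjusted p = 0.861, paired 0.126). P4ha1 read 9.94, 10.06 and 10.10 in DKO and 10.29, 10.45 and 10.40 in ApoE-KO, a difference of -0.35 (-0.55 to -0.14; adjusted p = 0.839, paired 0.0721). In neither gene did the groups overlap, and ApoE-KO replicate 1 stood far above the rest in P4ha3, whose difference was -0.48 without it. Groups did not overlap in 6 of the 51, all lower in DKO. Of all probe sets, 6.47% were lower and 5.55% higher in DKO without overlap. P4hb, the subunit these enzymes share, differed by 0.00 and P4ha2 by -0.06. Plod1, a lysyl hydroxylase, differed by -0.16, and P3h2, a prolyl 3-hydroxylase of basement membrane collagen, by 0.16.

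Among folding factors, Serpinh1, the collagen chaperone HSP47, read 10.48, 10.55 and 10.40 in DKO and 10.91, 10.74 and 10.50 in ApoE-KO, a difference of -0.24 with overlapping groups (limma, adjusted p = 0.862, paired 0.199). Hspa5, the general chaperone BiP, differed by -0.37 with overlapping groups, and its pairs stood at 0.07, -0.75 and -0.43. Ppib, a proline isomerase, differed by -0.11, and Tmem38b, an ion channel of the endoplasmic reticulum, by 0.19. All 7 genes of propeptide cleavage had a lower mean in DKO, by 0.07 to 0.19, and 6 were lower in all 3 pairs. They included Bmp1, the procollagen C-proteinase (-0.14), its enhancers Pcolce (-0.13) and Pcolce2 (-0.19), and the related protease Tll2 (-0.15). Paired adjusted p-values of these 4 (limma) ran from 0.207 to 0.372. Without DKO replicate 1 the difference was -0.0007 for Bmp1 and -0.03 for Pcolce, and without ApoE-KO replicate 2 it was -0.05 and -0.02 for these genes and -0.07 for Tll2.

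Cross-linking and assembly genes lay on both sides. Lox, the lysyl oxidase that cross-links fibrils, differed by 0.24, with pairs at 0.02, 0.21 and 0.49. In fits with no pairing, dropping ApoE-KO replicate 3 lowered the Lox difference to 0.06, whereas dropping DKO replicate 3 raised it to 0.30. Dropping both of these arrays, each of which carried lung transcripts, left 0.11. The part of lung or skeletal muscle tissue in the Lox difference was not tested. Pxdn, the peroxidase that cross-links type IV collagen, differed by 0.16, with pairs at 0.20, 0.15 and 0.11 (limma, paired adjusted p = 0.243). Tnxb, a tenascin that spaces fibrils, was lower by 0.22 (paired adjusted p = 0.142) and Loxl3 by 0.12. Of the receptors, Itgb1, the beta subunit of all collagen-binding integrins, read 12.51, 12.40 and 12.30 in DKO and 12.36, 11.99 and 12.12 in ApoE-KO, a difference of 0.25 (paired adjusted p = 0.154). The alpha subunits that pair with it differed in sign, Itga11, of fibroblasts, at -0.40, Itga10, of cartilage, at 0.24 and Itga2 at -0.11. Without ApoE-KO replicate 2 these were -0.17, 0.13 and -0.08. None of these passed.

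**Figure D4:**
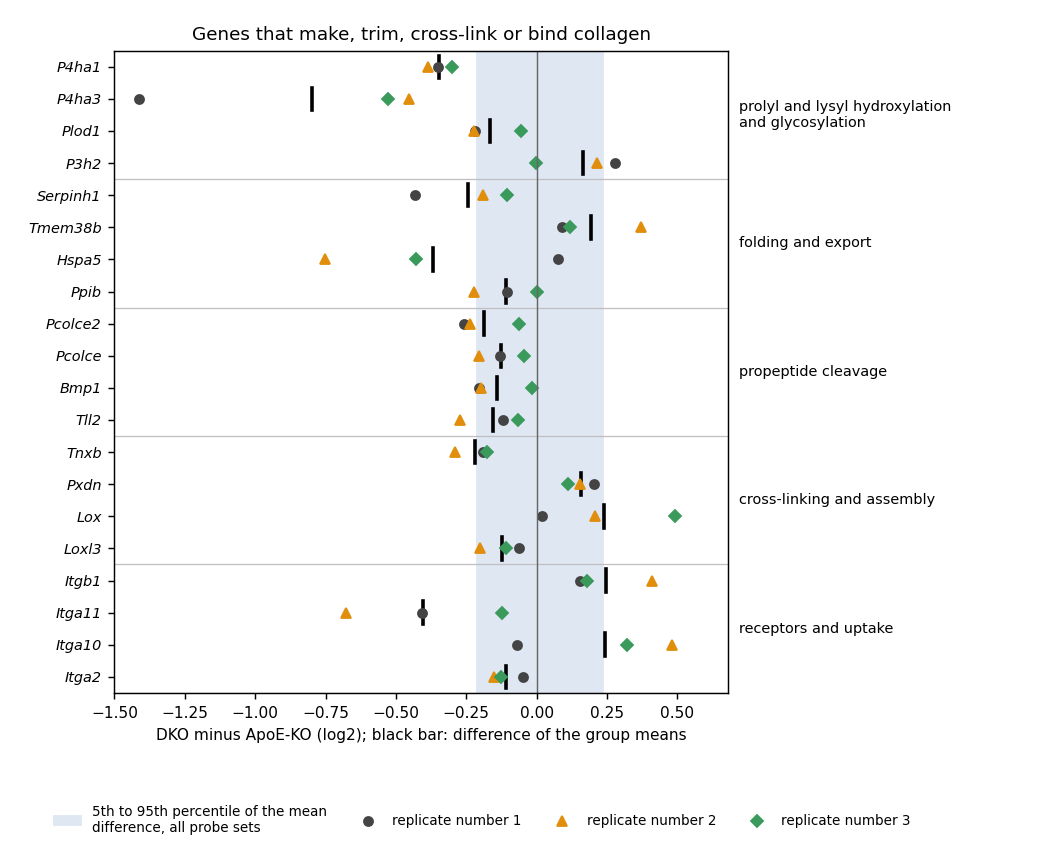
Difference DKO minus ApoE-KO (log2, x axis) of up to 4 genes from each of the 5 lists of collagen-making and collagen-binding genes, chosen by smallest unadjusted p in the paired fit: symbols are same-numbered pairs, black bars the difference of the group means, and the shaded band the 5th to 95th percentile of all probe sets. Of the genes drawn P4ha3 lies farthest left, at -0.80, with its pair 1 at -1.41.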

How the data were processed

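RNA of 6 aortic samples was measured on 6 arrays. The authors deposited log2 intensities of 25254 probe sets in 1 table; RMA, Partek and build mm9 are named in the submitters' processing notes, and removal of a batch effect is neither stated nor denied there. Platform annotation named 1 gene for 21496 probe sets, several for 1565 and none for 2193. DKO was set against ApoE-KO over every probe set in R 4.3.3 with limma 3.58.1 (lmFit, eBayes with an intensity trend, no filter), two-sided, with Benjamini-Hochberg adjustment over all of them at 0.05 and 95% intervals. The series text describes an ANOVA with an array batch that no label names, so the first fit had no block. Intervals are of that fit unless called paired, and neither kind is adjusted over the probe sets.

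Deviations from the group means of same-numbered arrays correlated at 0.60, 0.50 and 0.64, across probe sets, and other arrays at -0.53 to -0.10, so equal numbers were treated as pairs, a link seen in the data and not in the labels, and paired values are given where they bear on a call. The number of arrays limits the precision, and an exact test of 3 against 3 cannot go below 0.1. Both fits were run on simulated data with known changes. The data for the fit without pairing held no link between same-numbered arrays, unlike the real ones. That run therefore does not show what the unpaired fit can call here. Members, lists and classes were chosen with earlier results of these data known. Values of each array are given for the 6 brightest members, those at an unadjusted p of at most 0.05 in either fit, the 2 with the widest range and 8 major chains; of other lists, up to 4 genes with the smallest paired p are named. Acta2, P4hb, P4ha2, Lum, Psmd10, Nxt2, Eif2s3y and Tgfb1 were named after their values were seen. Alternatives were the replicate block, other normalizations, a filter at the 40th percentile, other moderation, array weights, unmoderated models, and arrays or pairs left out. Refits that left out a single array had no block, so they weighed the replicate numbers unequally. Promoter windows came from RefSeq, whose coordinates are of GRCm38.p6 and were not set against the array's build.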

Additional observations from a re-analysis of the deposited data

How the results depend on the processing

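Without pairing 0 probe sets passed, and 44 did with the replicate block, 1 in the unmoderated linear model, and 415 and 48 with the block but without both arrays of pair 1 or of pair 3; the block without pair 2 and the block without moderation gave 0, so the paired white fat and mesothelial calls were lost there. Leaving out single arrays gave 0 to 8 (8 without DKO replicate 3). With the block and without pair 1, where 415 of 25254 probe sets passed, 1 of 38 collagen members did, Col4a6 (0.43, limma adjusted p = 0.0464). Of 51 collagen-making or collagen-binding genes 3 did, Hspa5 (-0.59), Lum (0.57) and P4ha3 (-0.49). This is 1 of 19 refits, and dropping a pair leaves few arrays to measure spread. In the other refits 0 of either kind passed. Within pair 1 itself, Hspa5 and Lum had the opposite sign, at 0.07 and -0.19, while Col4a6 stood at 0.24 and P4ha3 at -1.41. Over single arrays left out, the members' median difference ran from -0.093 to -0.0155, and class medians from -0.1719 to -0.0236 for fibrillar, -0.0722 to 0.1356 for type IV, -0.1453 to -0.0107 for type VI, -0.1015 to -0.0695 for the anchoring fibril, -0.1732 to 0.0089 for short-chain, -0.0851 to -0.0275 for FACIT, -0.032 to 0.317 for multiplexin and -0.0739 to 0.0025 for transmembrane chains. Renewed quantile normalization moved the type IV median to -0.084 and the anchoring fibril to -0.109; the block without pair 1 moved FACIT to -0.0188, and without pair 2 short-chain to -0.1652. With single arrays left out and no pairing, Col18a1 ran from -0.0451 to 0.3625 (-0.0095 without ApoE-KO replicate 3). P3h2 ran from -0.1492 to 0.4195 and Tmem38b from -0.0351 to 0.4752, and each gene was lowest without DKO replicate 1. In each, the mean of same-numbered arrays was highest for number 1, at 11.68, 11.81 and 10.65, and these refits weigh the numbers unequally. The cause was not tested further. Of the 38 members, 19 changed sign in at least 1 of 19 refits, several of which leave the differences as they were by construction; Col4a5, Col4a6, Col3a1, Col1a1, Col1a2 and Col6a3 did not. Leaving out both replicate 3 arrays without pairing was chosen after seeing the data, and 32 of 38 members then had a lower mean in DKO.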

Other observations

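Collagen genes outside the list of 38 had 8 probe sets. The type VI chain gene Col6a5 has 2, which read 6.60, 6.34 and 6.57 in DKO and 7.19, 6.51 and 7.03 in ApoE-KO (difference -0.41) and 7.63, 7.55 and 7.35 in DKO and 7.94, 7.56 and 7.56 in ApoE-KO (-0.18). Its relative Col6a6 was higher in DKO on both of its probe sets, by 0.11 and 0.20, while Col6a4 differed by -0.06. Col20a1, a fibril-associated chain, read 8.20, 8.23 and 8.26 in DKO and 8.26, 8.61 and 8.57 in ApoE-KO, a difference of -0.25, and Col22a1 and Col26a1 differed by -0.08 and -0.04. None of these passed in limma with or without the replicate block. Tgfb1, the growth factor that induces fibrillar collagen genes in many cells, read 10.60, 10.94 and 10.78 in DKO and 10.59, 10.63 and 10.39 in ApoE-KO, a difference of 0.24 (limma, adjusted p = 0.862), chosen after its value was seen.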
